A study of Homo sapiens with 16 samples.

Results

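Transcript abundance under an inhibitor of the EGFR kinase was compared directly with that under an inhibitor of tankyrase. The 8 libraries that carry the comparison, 4 with gefitinib alone and 4 with AZ1366 alone, were taken from the 16 of the study by their treatment label. HCC4006, an established line of non-small cell lung cancer with an activating mutation of EGFR, was plated, left to grow for 24 hours and then exposed for 24 hours to gefitinib at 100 nM, to AZ1366 at 100 nM, to both compounds at 100 nM each, or to the DMSO vehicle. Cells were lifted with trypsin and frozen before polyA RNA was sequenced. The 4 vehicle libraries served as the common reference of both single agents. Levels of the 4 combination libraries are cited only where they place a gene between or beyond the single agents. The combination libraries also entered the FPKM limit and the shared estimate of spread behind every SE and p-value. All 16 libraries came from 1 cell line, and whether the 4 libraries of a group were separate cultures is not given in the labels, so the p-values refer only to the spread among libraries, which may be technical. The measured value was FPKM, a fragment count scaled to transcript length and to the mapped total, for 24293 loci, of which the 11647 with a mean of at least 1 FPKM over the 16 libraries were tested. TMEM120B lay just inside that limit at 1.0008 FPKM and DERL3 just outside it at 0.9997 FPKM.

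Gefitinib occupies the ATP pocket of EGFR and so blocks the signal that a mutant receptor sends through RAS, RAF and ERK to nuclear factors of the ETS and AP-1 families, and through PI3K and AKT. Tankyrase 1 and 2 attach poly(ADP-ribose) chains to proteins such as AXIN and the angiomotins, which marks them for degradation. Inhibiting the enzymes stabilises AXIN, a scaffold of the complex that destroys beta-catenin, and angiomotins, which hold the coactivators YAP and TAZ away from the TEAD factors, so Wnt and YAP target genes are the usual readouts of such inhibitors.

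Library totals were similar in both groups. FPKM summed to between 438139 and 466748 per gefitinib library and to between 443600 and 462151 per AZ1366 library. Read numbers were not analysed here, so depth is not known and values carry no counting interval. Across tested loci, log2 values of libraries from the same single-agent group correlated at 0.9913 to 0.9978 and those from different groups at 0.9776 to 0.9833. In a principal component analysis of the 8 libraries the first component held 67.1% of the variance and separated the groups, with gefitinib libraries at -21.2 to -13.7 and AZ1366 libraries at 10.2 to 21.4. AZ1366 replicate 1 stood apart from the other 3 AZ1366 libraries on the second component (22.6 against -9.0 to -0.10), and counts that rest on it are given with and without it. The epithelial markers were high in all 8 libraries, for example EPCAM at 246 to 271 FPKM and KRT7 at 1090 to 1740 FPKM. Of 17 markers of fibroblasts, endothelium and blood cells, 16 averaged under 1 FPKM, with MS4A1 and HBB at 0 in every library. The remaining marker, the lysosomal CD68, set the sum of the list, which was 53.5 to 58.4 FPKM with gefitinib, 41.0 to 47.4 with AZ1366 and 35.8 to 39.8 with vehicle.

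Promoters of 6 genes that differed between the 2 agents are shown here. They were picked because each holds the core letters of a factor family named above or of the interferon response. The presence of a match in them was therefore fixed by the choice. Each sequence gives the 250 bases before the annotated start, 5′ to 3′ on the strand of the gene, from RefSeq on GRCh38.p14, and capitals mark the matched letters. In CTGF (chr6:131951373-131951622, minus strand) and ANKRD1 (chr10:90921088-90921337, minus strand), which were higher with gefitinib and lower with AZ1366 than with vehicle, capitals mark GGAATG, the TEAD core.
CTGF: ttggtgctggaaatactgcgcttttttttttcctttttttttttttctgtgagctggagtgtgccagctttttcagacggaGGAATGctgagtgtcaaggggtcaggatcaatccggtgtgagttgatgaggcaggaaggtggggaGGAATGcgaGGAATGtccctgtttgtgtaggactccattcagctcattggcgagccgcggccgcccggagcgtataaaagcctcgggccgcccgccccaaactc
ANKRD1: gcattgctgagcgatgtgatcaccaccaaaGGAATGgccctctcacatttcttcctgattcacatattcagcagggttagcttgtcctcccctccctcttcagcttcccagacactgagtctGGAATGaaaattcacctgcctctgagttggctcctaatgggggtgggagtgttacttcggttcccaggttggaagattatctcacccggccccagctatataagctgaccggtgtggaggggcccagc
In TNFSF10 (chr3:172523431-172523680, minus strand) and CXCL10 (chr4:76023498-76023747, minus strand), both higher with gefitinib than with AZ1366, capitals mark GAAANNGAA, a core of the interferon-stimulated response element, or its reverse complement.
TNFSF10: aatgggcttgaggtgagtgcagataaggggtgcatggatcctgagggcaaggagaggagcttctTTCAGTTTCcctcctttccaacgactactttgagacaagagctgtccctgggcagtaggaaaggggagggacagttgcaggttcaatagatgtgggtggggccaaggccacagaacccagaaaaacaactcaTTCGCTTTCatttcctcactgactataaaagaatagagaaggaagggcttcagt
CXCL10: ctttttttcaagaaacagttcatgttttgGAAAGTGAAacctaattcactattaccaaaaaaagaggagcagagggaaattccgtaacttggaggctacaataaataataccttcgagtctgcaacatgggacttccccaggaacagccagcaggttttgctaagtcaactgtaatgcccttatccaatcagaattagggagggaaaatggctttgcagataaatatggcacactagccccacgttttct
In SPRR1B (chr1:153030953-153031202, plus strand) and IL8 (CXCL8 in RefSeq; chr4:73740319-73740568, plus strand), both lower with gefitinib and higher with AZ1366 than with vehicle, capitals mark TGANTCA, the AP-1 site.
SPRR1B: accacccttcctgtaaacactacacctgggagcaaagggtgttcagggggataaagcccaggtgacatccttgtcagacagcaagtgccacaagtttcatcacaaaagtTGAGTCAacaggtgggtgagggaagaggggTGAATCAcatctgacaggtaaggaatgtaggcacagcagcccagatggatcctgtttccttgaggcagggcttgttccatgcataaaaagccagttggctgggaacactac
IL8: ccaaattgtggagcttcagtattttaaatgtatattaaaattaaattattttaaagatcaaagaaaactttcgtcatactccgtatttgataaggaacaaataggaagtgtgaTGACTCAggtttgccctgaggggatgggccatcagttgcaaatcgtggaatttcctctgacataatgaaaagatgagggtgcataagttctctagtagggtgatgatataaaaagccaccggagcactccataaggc

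The searched letters were counted on both strands in the same 250 bases of every tested locus with a promoter in the RefSeq table, which were 9106 loci and 9026 distinct promoters. GGAATG was present in 9.27% of them, TGANTCA in 3.98%, GAAANNGAA in 5.38% and CCGGAAG, an ETS core, in 16.9%. CTGF held the TEAD core 3 times and ANKRD1 held it 2 times. ANKRD1 also held an AP-1 site and SPRR1B also held a TEAD core, both left in lower case above. The letters of these families were thus not confined to genes of 1 direction. GGAATG occurred in 6 of 17 promoters of listed YAP and TEAD targets and in 18 of the 116 promoters of loci at least 1 log2 unit higher with gefitinib than with AZ1366 (15.5%). GAAANNGAA occurred in 18 of 26 promoters of listed interferon-stimulated genes. The listed ERK phosphatases and Sprouty genes held TGANTCA in 0 of 8 promoters and CCGGAAG in 0 of 8. The listed ERK-driven transcription factors and early genes held each of the 2 in 1 of 13 promoters. TGANTCA occurred in 9 of the 36 promoters of loci at least 1 log2 unit lower with gefitinib than with AZ1366 and in 12 of the 116 of the converse set. CCGGAAG was found in 0 of those 36 and 2 of those 116 promoters, and in 79 of 356 promoters (22.2%) of loci lowered alike by both agents. None of the matches marked in the 6 printed promoters shared a base with another. A match or its absence describes the window only.

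Placed side by side, the single agents differed in level at 5361 of 11647 loci by limma at an adjusted p of 0.05. Of these, 3273 (28.1% of the tested loci) were higher with gefitinib and 2088 (17.9%) were lower, so that 61.1% of the called loci were on the gefitinib side. That balance depended on the scaling: it was 47.3% (2857 higher, 3181 lower) after quantile normalization, 50.4% (3019 and 2972) after median-ratio scaling and 46.9% (2939 and 3328) after a correction for transcript length and GC content. Without AZ1366 replicate 1 it was 69.1% (4497 and 2009). The median difference of all tested loci was 0.04 as deposited and -0.01 after median-ratio scaling. Most differences were small: 157 loci (1.35%) were at least 1 log2 unit higher and 52 (0.446%) at least 1 log2 unit lower with gefitinib. Of the loci called higher, 2498 were called in the same direction under all 3 other scalings, and of those called lower 2007 were. Differences are of log2(FPKM + 1), which shrinks them at low FPKM. FPKM is relative to the library total, and in bulk RNA fewer cells of a kind cannot be told apart from less RNA per cell.

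Against vehicle, gefitinib raised 3226 loci (27.7%) and lowered 4295 (36.9%), and AZ1366 raised 2168 (18.6%) and lowered 4633 (39.8%). The 157 loci with the larger excess under gefitinib were of 3 main kinds: 63 rose with gefitinib and were not called with AZ1366, 51 rose with both, and 42 rose with gefitinib and fell with AZ1366. Of the 52 loci on the other side, 22 fell with gefitinib and rose with AZ1366, 14 fell with both, and 14 fell with gefitinib and were not called with AZ1366. Both changes are measured against the same 4 vehicle libraries, so a shared error of the vehicle level moves them together.

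**Figure D1:**
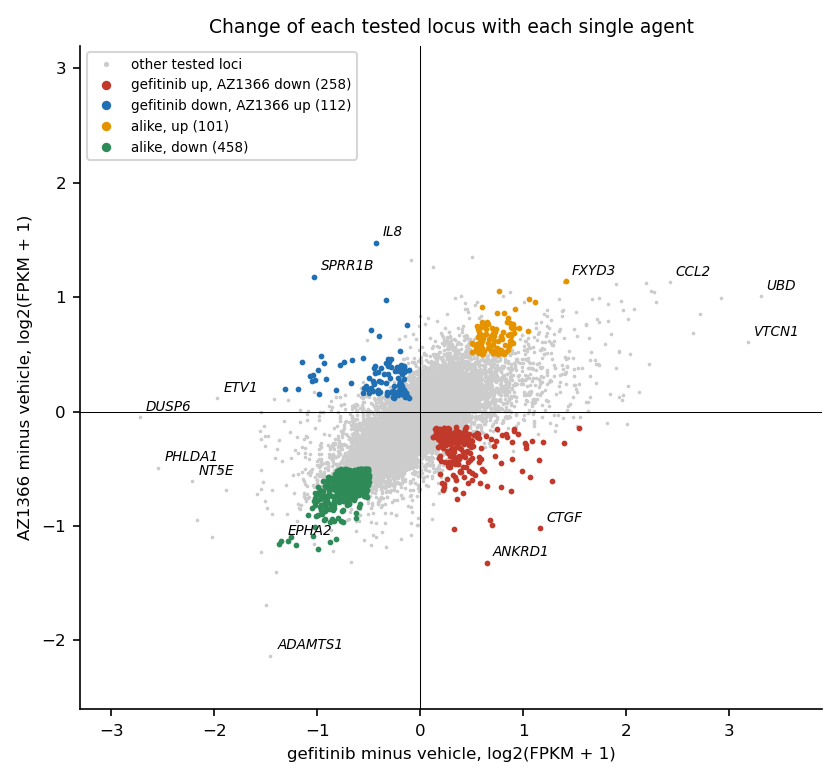
Change of every tested locus against vehicle in log2(FPKM + 1), gefitinib on the horizontal axis and AZ1366 on the vertical axis, with loci of the opposite and alike classes in colour and their number in the key. CTGF and ANKRD1 lie at the lower right (gefitinib 1.16 and 0.64, AZ1366 -1.02 and -1.32), SPRR1B and IL8 at the upper left, DUSP6 and ETV1 at the far left near the level of vehicle on the vertical axis, and both axes share the vehicle libraries.

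The largest excess under gefitinib was that of VTCN1, which encodes the inhibitory T cell ligand B7-H4 (hg19 chromosome 1, 117686209 to 117753582). It measured 42.3, 46.1, 44.2 and 38.9 FPKM in gefitinib replicates 1 to 4 and 6.53, 6.02, 5.90 and 6.95 FPKM in AZ1366 replicates 1 to 4. The groups were far apart, and AZ1366 too lay above the vehicle range of 3.69 to 3.98 FPKM. The direct difference was 2.58 ± 0.060 (SE, limma adjusted p = 2.21e-15). UBD, the ubiquitin-like modifier FAT10, reached 13.7, 11.7, 14.8 and 13.3 FPKM with gefitinib against 1.95, 1.99, 1.83 and 1.90 FPKM with AZ1366, a difference of 2.29 ± 0.067 (adjusted p = 4.62e-14). For UBD both agents raised the level from 0.408 to 0.522 FPKM in vehicle, by 3.30 with gefitinib and by 1.01 with AZ1366. PDZK1IP1, a small membrane protein of epithelial cells, varied little within groups, at 50.1 to 52.0 FPKM against 12.5 to 13.2 FPKM (1.92 ± 0.050). NUPR1, a stress-induced chromatin protein, was at 5.81 to 7.73 FPKM with gefitinib and at 0.651 to 1.17 FPKM with AZ1366, the latter overlapping vehicle (0.820 to 1.07 FPKM).

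MMP7, the metalloproteinase matrilysin, rose with both agents but unequally, to 45.1 to 57.5 FPKM with gefitinib and 11.8 to 14.8 FPKM with AZ1366 from 6.5 to 7.32 FPKM (direct difference 1.86 ± 0.078). NEDD9, a scaffold of focal adhesions next in order after the 12 largest and chosen after its values were seen, rose with gefitinib only by the test (27.6 to 32.3 FPKM against 7.07 to 9.42 FPKM with AZ1366; AZ1366 against vehicle adjusted p = 0.0945). Its direct difference was 1.82 ± 0.073 with an adjusted p of 3.58e-12.

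**Figure D2:**
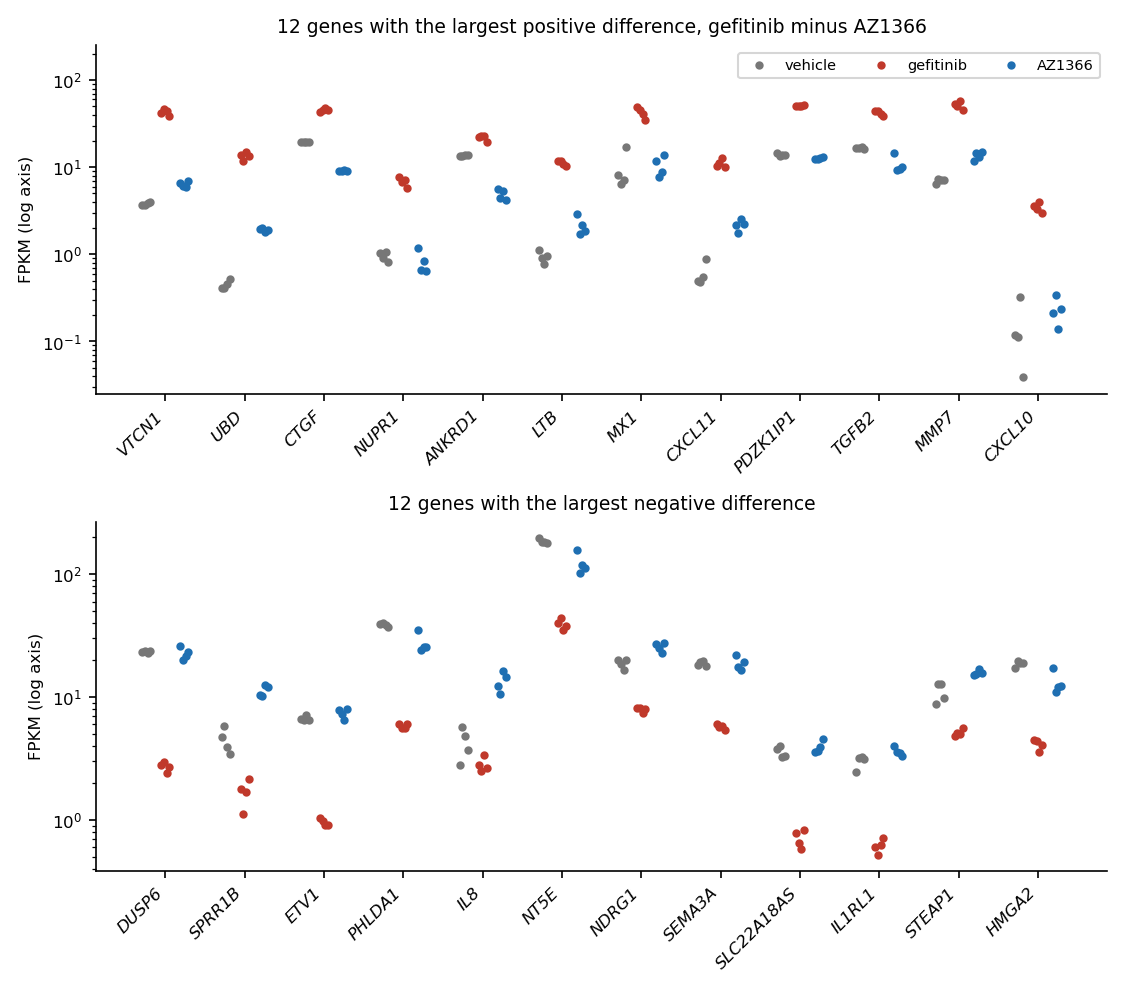
FPKM (log axis) of each vehicle, gefitinib and AZ1366 library, 1 point per library, for the 12 genes with the largest positive and the 12 with the largest negative direct difference. The 24 genes were picked among loci whose gefitinib and AZ1366 libraries did not overlap, so the absence of overlap was fixed by the choice. Over all 11647 tested loci, 2393 had no overlap and were higher with gefitinib, and 1716 had none and were lower. CXCL10 is the lowest of the 24 genes with AZ1366, at 0.139 to 0.344 FPKM.

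Feedback inhibitors of ERK signalling, which are transcribed when ERK is active, fell with gefitinib and in several members stayed near vehicle with AZ1366. Gefitinib lowered 8 and raised 1 of the 10 tested members of the list of ERK phosphatases and Sprouty proteins (3 of 13 were below the FPKM limit), and AZ1366 lowered 4 and raised 2, a difference of counts that was not itself tested. Over all tested loci gefitinib lowered 36.9% and raised 27.7%, and AZ1366 lowered 39.8% and raised 18.6%. The AZ1366 counts of this list were near those shares. Set directly against each other, 8 members were lower with gefitinib than with AZ1366 and 1 was higher (DUSP8, 0.43, named after its value was seen), with a median difference of -0.86 against 0.04 over all tested loci. DUSP6, an ERK phosphatase (hg19 chromosome 12, 89741837 to 89746296), read 2.78, 2.95, 2.39 and 2.71 FPKM with gefitinib and 26.2, 20, 21.7 and 23.5 FPKM with AZ1366. The AZ1366 libraries surrounded the vehicle range of 23 to 23.8 FPKM, with an AZ1366 change of -0.05 (adjusted p = 0.639), and the direct difference of -2.68 ± 0.080 (adjusted p = 4.62e-14) was the most negative of all. DUSP4, another phosphatase of the family, was at 5.6 to 6.34 FPKM with gefitinib and at 16 to 20.6 FPKM with AZ1366 (-1.39 ± 0.075). SPRY4, an inhibitor of receptor tyrosine kinase signalling, was at 0.376 to 0.427 FPKM against 1.46 to 1.69 FPKM (-0.89 ± 0.070). SPRY2, of the same family, was lowered by gefitinib to 3.69 to 4.23 FPKM and raised a little by AZ1366 to 9.55 to 11.4 FPKM (0.16 against vehicle, adjusted p = 0.0385). SPRED1, which restrains RAS, differed by -0.82 ± 0.059.

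Of the transcription factors and early genes downstream of ERK, 13 of 21 tested members (5 of 26 were below the limit) were lower with gefitinib and 4 higher (median difference -0.53). Against vehicle AZ1366 lowered 12 of the 21 and raised 0, while gefitinib lowered 16 and raised 2. Under the 3 other scalings AZ1366 lowered 11 and raised 3 to 5 of these 21. ETV1, a PEA3-type ETS factor (hg19 chromosome 7, 13930856 to 14031050), was at 1.04, 0.976, 0.912 and 0.912 FPKM with gefitinib and at 7.89, 7.22, 6.46 and 7.94 FPKM with AZ1366. AZ1366 libraries of ETV1 overlapped vehicle (6.48 to 7.17 FPKM), and the direct difference was -2.09 ± 0.062 (adjusted p = 4.62e-14). ETV4 and ETV5, its relatives, differed by -1.09 ± 0.077 and -1.39 ± 0.067. PHLDA1, a pleckstrin-homology protein induced by growth factors, fell with both agents from 37.1 to 40.2 FPKM, to 5.56 to 6.09 FPKM with gefitinib and 24.1 to 35.1 FPKM with AZ1366, a direct difference of -2.06 ± 0.093. CCND1, which encodes cyclin D1, was likewise lowered by both: it was at 68.3, 67.6, 57.9 and 65.7 FPKM with gefitinib and 147, 107, 108 and 117 FPKM with AZ1366, against 191 to 210 FPKM with vehicle. Its direct difference was -0.86 ± 0.088 (adjusted p = 3.66e-07). MYC, by contrast, was at 2.75 to 2.91 FPKM with gefitinib and 2.56 to 3.30 FPKM with AZ1366, both below vehicle (4.77 to 6.63 FPKM), and its direct difference of -0.08 had a 95% interval of -0.25 to 0.09 (adjusted p = 0.437).

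Of 11 ligands of the EGF family 4 were above the FPKM limit, and each agent lowered all 4, to different degrees. AREG, amphiregulin, was lower with gefitinib, at 1.31 to 1.59 FPKM against 4.31 to 5.72 FPKM (-1.31 ± 0.070). AREG has a near-identical copy in hg19, and how reads of the pair were assigned is not given in the sources used here. TGFA, which encodes transforming growth factor alpha, was also lower with gefitinib (-0.36 ± 0.073). NRG1, neuregulin 1, a ligand of ERBB3 and ERBB4, was instead lower with AZ1366, at 4.62 to 6.10 FPKM against 7.52 to 8.49 FPKM with gefitinib (0.54 ± 0.070), and so was HBEGF, heparin-binding EGF (0.31 ± 0.054). Receptors diverged too: ERBB2 stood at 21.2 to 25.7 FPKM with gefitinib and 12.8 to 18.9 FPKM with AZ1366 (0.62 ± 0.109, adjusted p = 0.000181), and only the rise with gefitinib passed the test against vehicle. EGFR fell with both. ERRFI1, the EGFR inhibitor MIG6 and itself a target of EGFR signalling, was the member of the receptor list called lower with gefitinib, at 34.6 to 37.9 FPKM against 67.9 to 83.5 FPKM (-1.01 ± 0.067), with AZ1366 above vehicle (0.19, adjusted p = 0.0216).

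Targets of YAP and TEAD lay mostly on the gefitinib side. All 23 listed targets were tested; 17 were higher with gefitinib than with AZ1366 and 1 was lower, with a median difference of 0.71. Against vehicle, AZ1366 lowered all 23 (median -0.68), and gefitinib raised 11 and lowered 9 (median 0.20). After quantile normalization, median-ratio scaling and the length and GC correction, AZ1366 lowered 23, 22 and 21 and raised 0, and gefitinib raised 13 and lowered 9 under each, while the count lower with gefitinib than with AZ1366 was 1, 1 and 2. Without AZ1366 replicate 1, 19 were higher with gefitinib and 1 was lower. The list was chosen with earlier results of these libraries known and is no independent evidence of its direction.

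CTGF, a matricellular growth factor and standard reporter of YAP activity whose promoter with 3 TEAD cores is printed above (hg19 chromosome 6, 132269317 to 132272518), was at 43.0, 45.1, 47.6 and 44.9 FPKM with gefitinib and at 9.14, 9.07, 9.31 and 9.16 FPKM with AZ1366. Vehicle lay between them at 19.5 to 19.7 FPKM, and so did the combination at 18.4 to 20.2 FPKM. Its direct difference was 2.18 ± 0.045 (adjusted p = 4.76e-16), with changes against vehicle of 1.16 for gefitinib and -1.02 for AZ1366. ANKRD1, a cardiac ankyrin repeat protein, was at 22.3, 22.8, 22.9 and 19.4 FPKM with gefitinib and 5.58, 4.42, 5.32 and 4.16 FPKM with AZ1366, on either side of vehicle (13.5 to 13.7 FPKM), with a difference of 1.97 ± 0.075. CYR61, a relative of CTGF, was at 156 to 170 FPKM against 74.0 to 86.1 FPKM (1.02 ± 0.058). AJUBA, a LIM protein that binds LATS kinases, was at 63.3 to 73.2 FPKM against 18.0 to 25.5 FPKM (1.69 ± 0.097). TGFB2, a TGF-beta ligand, was at 38.5 to 44.7 FPKM against 9.25 to 14.4 FPKM (1.89 ± 0.103), and IGFBP3, a carrier of insulin-like growth factors named after its values were seen, at 139 to 167 FPKM against 40.7 to 66.6 FPKM (1.63 ± 0.121).

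Other targets fell with both agents. AXL, a receptor kinase known for bypass of EGFR inhibitors, was at 87.4 to 95.3 FPKM with gefitinib and 52.8 to 68.6 FPKM with AZ1366, both below vehicle at 141 to 159 FPKM, and the difference was 0.64 ± 0.070. NT5E, the ectonucleotidase CD73, was the member lower with gefitinib: it read 40.1, 44.4, 35.1 and 37.7 FPKM with gefitinib and 158, 103, 118 and 113 FPKM with AZ1366 (-1.61 ± 0.106, adjusted p = 1.35e-09). FJX1, a Golgi kinase of the four-jointed family, fell alike with both. Where a minimum change of 0.5 against vehicle was asked of each agent, 13 loci rose with gefitinib and fell with AZ1366, and 8 of them were members of this list, while 1 locus, SPRR1B, did the reverse.

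**Figure D3:**
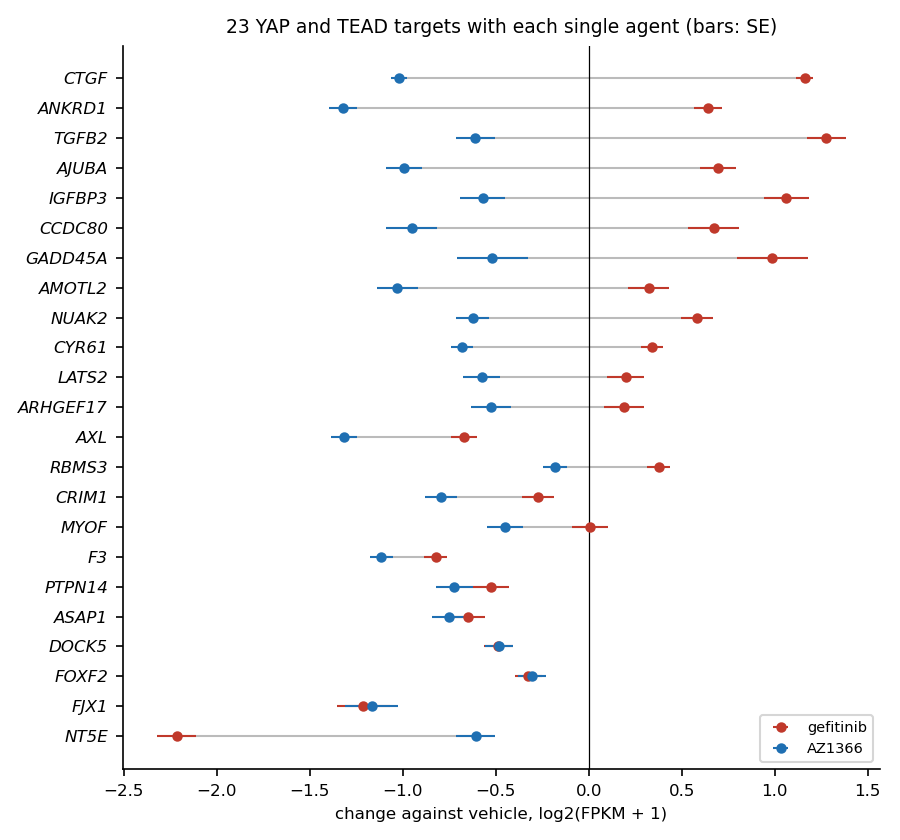
Change against vehicle in log2(FPKM + 1) of the 23 listed YAP and TEAD targets with gefitinib and with AZ1366, bars giving the SE of the model with 4 libraries per group, ordered by the direct difference. All AZ1366 points lie below 0, while the gefitinib points run from -2.21 (NT5E) to 1.28 (TGFB2).

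Components of the Hippo pathway and the substrates of tankyrase moved less, with median direct differences of 0.05 and 0.15. Among 13 tested tankyrases and substrates 4 were higher with gefitinib, near the share of all tested loci (28.1%), and 0 were lower. Against vehicle AZ1366 lowered 8 of them and raised 1. Without AZ1366 replicate 1 the direct counts were 8 and 0, and AZ1366 lowered 10 and raised 1. Under the 3 other scalings the direct counts were 4 and 0, and AZ1366 lowered 5 to 7 and raised 2. AMOTL2, an angiomotin that is both a tankyrase substrate and a YAP target, was at 30.2 to 36.2 FPKM with gefitinib and 10.7 to 15.9 FPKM with AZ1366 (1.35 ± 0.110), with vehicle at 24.1 to 30.4 FPKM. LATS2, the kinase that inactivates YAP, was higher with gefitinib by 0.77 ± 0.099. WWTR1, which encodes TAZ, was lower with gefitinib, at 14.4 to 17.5 FPKM against 29.7 to 45.2 FPKM (-1.08 ± 0.101), and AZ1366 was not called against vehicle. TEAD2, a DNA-binding partner of both coactivators, rose with both agents and was higher with gefitinib (0.51 ± 0.063). Over the 19 tested Hippo genes, 9 were higher and 2 lower with gefitinib, and 4 to 5 were lower under the 3 other scalings. Transcripts of the drug targets themselves did not separate the groups at this precision: TNKS differed by 0.04 (95% interval -0.08 to 0.15) and TNKS2 by 0.15 (-0.00 to 0.30). TNKS2 passed the test without AZ1366 replicate 1 (0.24 ± 0.054, adjusted p = 0.0012).

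Wnt pathway genes gave no single direction. Of 9 tested feedback targets 3 were higher and 3 lower with gefitinib, and 12 were below the FPKM limit. Of 27 tested receptors, ligand-handling genes and destruction complex genes 10 were higher and 2 lower, or 16 and 2 without AZ1366 replicate 1. After quantile normalization, median-ratio scaling and the length and GC correction the lower count of this list was 5, 6 and 7. DKK1, a secreted Wnt antagonist and target, was at 55.3 to 62.8 FPKM with gefitinib and 37.9 to 43.6 FPKM with AZ1366 (0.58 ± 0.064), and the change of -0.68 with AZ1366 passed the test against vehicle. TNFRSF19, the receptor TROY, was higher with gefitinib at 8.79 to 9.22 FPKM against 3.17 to 3.85 FPKM (1.15 ± 0.062), and LGR5, the R-spondin receptor, at 3.49 to 3.70 FPKM against 1.8 to 2.09 FPKM (0.67 ± 0.059), with AZ1366 near vehicle for both. FZD2, a Frizzled receptor, was at 12.8 to 14.8 FPKM against 5.68 to 7.52 FPKM (0.99 ± 0.075) and WNT5B, a Wnt ligand, differed by 0.83 ± 0.076. WLS, the carrier that releases Wnt ligands, was higher with AZ1366, at 40.0 to 42.1 FPKM against 27.4 to 29.3 FPKM (-0.53 ± 0.044), as was the nuclear effector TCF7L2 (-0.46 ± 0.062). AXIN2, the most used feedback target, was nearly silent in these cells: 0.0524, 0.0559, 0.0525 and 0.0474 FPKM with gefitinib and 0.0307, 0.0144, 0.0141 and 0.0215 FPKM with AZ1366, against 0.0353 to 0.10 FPKM with vehicle. The AXIN2 groups did not overlap, which in an exact two-sided permutation test gave p = 0.0286, the smallest that 4 against 4 allows, and 0.0571 adjusted over AXIN2 and NKD1. For NKD1, also a feedback inhibitor, the exact permutation p was 0.2.

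Interferon-stimulated genes were almost all on the gefitinib side. Of 34 tested members 33 were higher with gefitinib than with AZ1366 and 1, ISG20, was lower, and the median difference was 0.73. Gefitinib raised 33 of them and lowered 0 (median 0.92), and AZ1366 raised 18 and lowered 2 (median 0.23). Under the 3 other scalings 31 to 33 were higher with gefitinib and 1 lower. MX1, a dynamin-like antiviral GTPase, varied most between libraries: it was at 49.6, 45.6, 40.5 and 34.9 FPKM with gefitinib, 11.8, 7.69, 8.81 and 13.7 FPKM with AZ1366 and 6.42 to 17.1 FPKM with vehicle. AZ1366 and vehicle overlapped and gefitinib lay above both, with a direct difference of 1.94 ± 0.216 (adjusted p = 1.08e-06). IFIT3, an antiviral RNA-binding adaptor, was at 40.7 to 64.0 FPKM against 17.2 to 23.7 FPKM (1.34 ± 0.109), IFIT2 at 24.2 to 31.1 FPKM against 11.8 to 14.1 FPKM (1.08 ± 0.071), and USP18, which removes ISG15 from proteins, at 9.32 to 10.6 FPKM against 4.43 to 4.98 FPKM (0.98 ± 0.079). OASL, a member of the oligoadenylate synthetase family, rose with both agents and more with gefitinib (0.69 ± 0.055).

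Genes of antigen presentation were higher with gefitinib in 14 of 19 tested members and lower in 0 (median 0.41). PSMB10, an immunoproteasome subunit, was at 61.2 to 70.1 FPKM against 31.1 to 34.7 FPKM (0.99 ± 0.061). TAP1, the peptide transporter, was at 25.5 to 30.0 FPKM against 12.3 to 16.3 FPKM (0.92 ± 0.080), and HLA-E at 167 to 185 FPKM against 96.4 to 124 FPKM (0.70 ± 0.071). Values of HLA genes share reads with near-identical family members and are uncertain to that extent. Of 16 tested NF-kB genes 13 were higher and 0 lower with gefitinib (15 and 0 without AZ1366 replicate 1), led by ICAM1, an adhesion ligand of leukocytes, at 27.7 to 32.1 FPKM against 9.67 to 14.5 FPKM (1.36 ± 0.105).

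Of 25 chemokines and cytokines 13 passed the FPKM limit, some of them, such as CXCL10, through the libraries where they were high. Of the 13, 10 were higher and 2 lower with gefitinib (IL8 and CSF2; median 0.76). CCL2, which attracts monocytes, read 220, 209, 228 and 238 FPKM with gefitinib and 89.1, 89.1, 93.0 and 91.8 FPKM with AZ1366, both above vehicle at 36.9 to 45.4 FPKM (direct difference 1.29 ± 0.058). CXCL10, whose promoter is printed above, was at 3.59, 3.34, 3.98 and 2.99 FPKM with gefitinib and 0.214, 0.344, 0.139 and 0.237 FPKM with AZ1366 (1.86 ± 0.091). CXCL11 was at 10.0 to 12.9 FPKM against 1.77 to 2.56 FPKM (1.93 ± 0.089); the file places these CXCR3 ligands in 1 joint interval, so reads could be split between them. LTB, lymphotoxin beta, was at 10.4 to 11.7 FPKM against 1.73 to 2.89 FPKM (1.96 ± 0.10). IL8 went the other way, as described below. Of 9 tested B7 family and checkpoint ligands 6, VTCN1 among them, were higher and 1 lower with gefitinib (median 0.41). LGALS9, galectin 9, was higher with gefitinib (1.21 ± 0.065). The lower member was CD274, which encodes PD-L1 and was lowered by both agents and further by gefitinib, to 19.7 to 23.3 FPKM against 33.1 to 39.2 FPKM and 54.8 to 56.8 FPKM with vehicle (-0.67 ± 0.058).

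Proliferation genes were lowered by both agents and further by gefitinib. Of 39 tested genes of DNA replication and the G1/S step, 31 were lower and 0 higher with gefitinib than with AZ1366 (median -0.34), and of 38 genes of G2 and mitosis 24 were lower and 0 higher (median -0.25). Against vehicle gefitinib lowered 38 and 38 of these and AZ1366 26 and 28, raising 0 and 3. GINS2, a subunit of the replicative helicase, was at 19.5, 20.6, 21.0 and 22.6 FPKM with gefitinib and 29.6, 33.3, 33.9 and 30.9 FPKM with AZ1366, the latter overlapping vehicle (32.3 to 34.5 FPKM; direct difference -0.59 ± 0.057). UBE2C, which loads ubiquitin for the anaphase-promoting complex, was at 76.8 to 86.7 FPKM against 111 to 115 FPKM (-0.49 ± 0.054). PLK1, a mitotic kinase, was at 51.9 to 59.8 FPKM against 75.8 to 87.1 FPKM, both below vehicle (107 to 124 FPKM), and differed by -0.50 ± 0.065. MKI67, the proliferation antigen Ki-67, was not called: it was at 13.1, 12.9, 9.44 and 8.71 FPKM with gefitinib and 21.1, 10.6, 9.57 and 13.3 FPKM with AZ1366. AZ1366 replicate 1 was the high library, the groups overlapped, and the direct difference of -0.24 had a 95% interval of -0.60 to 0.12 (adjusted p = 0.265). That difference is near the median of the G2 and mitosis genes (-0.25), and the wide interval does not separate it from 0 or from that median.

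Ribosome biogenesis factors were also lower with gefitinib, 15 of 25 tested members against 0 higher (median -0.24), whereas of 33 cytosolic ribosomal proteins 5 were lower and 0 higher (median -0.04) and of 31 nuclear genes of oxidative phosphorylation 4 were lower and 0 higher (median -0.04; 10 lower and 1 higher without AZ1366 replicate 1). After quantile normalization 4 of the ribosomal proteins and 2 of the oxidative phosphorylation genes were higher. Among CDK inhibitors and p53 targets 10 of 20 were higher and 4 lower. PLK2, a p53-responsive kinase, was at 49.5 to 62.1 FPKM against 23.6 to 35.3 FPKM (0.97 ± 0.102), with a fall against vehicle for AZ1366 only by the test, while GDF15, a stress cytokine, was at 4.79 to 5.65 FPKM with gefitinib and 8.57 to 11.2 FPKM with AZ1366 (-0.84 ± 0.073), with a rise against vehicle that passed the test for AZ1366 and not for gefitinib (adjusted p = 0.969).

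Against vehicle, gefitinib raised 5 and lowered 3 of 12 tested pro-apoptotic BCL2 relatives, and AZ1366 raised 6 and lowered 1. BMF, a BH3-only activator of cell death, was at 25.9, 26.9, 24.6 and 23.4 FPKM with gefitinib and 16.1, 13.4, 12.7 and 14.7 FPKM with AZ1366, both above vehicle at 5.51 to 6.52 FPKM, with a direct difference of 0.79 ± 0.072 (adjusted p = 8.87e-08). BBC3, which encodes PUMA, was at 6.80 to 8.07 FPKM against 3.41 to 4.98 FPKM (0.68 ± 0.096). BCL2L11, which encodes BIM, differed less, at 3.53 to 3.99 FPKM against 2.83 to 3.27 FPKM (0.23 ± 0.062, adjusted p = 0.00541). Set directly against each other, 5 of the 12 were higher and 2 lower with gefitinib (BID and BNIP3), or 3 and 3 after the length and GC correction, not far from the shares of all tested loci. Over the 8 pro-survival genes 3 were higher and 3 lower. BCL2L1, which encodes BCL-XL, was lower with gefitinib (-0.30 ± 0.054), and BIRC3, an inhibitor of apoptosis induced by NF-kB, higher (0.67 ± 0.072).

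TNFSF10, the death ligand TRAIL with 2 response element matches in its promoter above, was at 69.2, 71.3, 65.4 and 51.1 FPKM with gefitinib and 27.9, 27.9, 23.5 and 27.5 FPKM with AZ1366, both above vehicle at 10.9 to 14.8 FPKM (direct difference 1.23 ± 0.097, adjusted p = 1.40e-08). Of its receptors, TNFRSF10A, a death receptor, was lower with gefitinib (-0.57 ± 0.071). So was TNFRSF10D, a decoy receptor, at 3 to 3.42 FPKM against 6.58 to 9.19 FPKM (-1.04 ± 0.091), and both fell with each agent against vehicle.

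Glycolytic and hypoxia-response genes were lower with gefitinib in 19 of 25 tested members and higher in 2 (median -0.27), and 6 of them fell with gefitinib while rising with AZ1366. CA9, carbonic anhydrase 9, was at 4.41 to 4.69 FPKM with gefitinib and 11.6 to 14.0 FPKM with AZ1366, on either side of the vehicle mean (8.71 to 11.7 FPKM; direct difference -1.32 ± 0.078). NDRG1, a stress protein of the same response, was at 8.09, 8.13, 7.43 and 8.03 FPKM with gefitinib and 27.3, 24.9, 22.9 and 27.4 FPKM with AZ1366, with vehicle between at 16.5 to 20.1 FPKM (-1.57 ± 0.067, adjusted p = 6.70e-12). HK2, hexokinase 2, was lowered by both agents and further by gefitinib (-0.83 ± 0.079). In lipid synthesis, SCD, the stearoyl-CoA desaturase, and ELOVL6, a fatty acid elongase, differed by -0.56 ± 0.087 and -0.55 ± 0.080, while the 13 tested fatty acid genes were balanced at 3 higher and 3 lower as deposited and at 2 higher and 10 lower after median-ratio scaling.

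Lysosome and autophagy genes were higher with gefitinib in 18 of 25 and lower in 2 (median 0.28). SQSTM1, the autophagy receptor p62, was at 237 to 274 FPKM against 147 to 170 FPKM (0.70 ± 0.062), and ULK1, the initiating kinase, differed by 0.73 ± 0.084. Genes controlled by FOXO factors, which AKT restrains, were higher with gefitinib than with AZ1366 in 12 of 23 and lower in 4 (median 0.22). Under the 3 other scalings 12 to 13 were higher and 5 to 7 lower. Against vehicle both agents raised similar numbers of the 23. Gefitinib raised 12 and lowered 5 (median 0.27), and AZ1366 raised 11 and lowered 4 (median 0.21). GABARAPL1, an autophagosome protein kept in this list, was at 11.8 to 13.0 FPKM against 4.50 to 4.87 FPKM (1.24 ± 0.053). PIK3IP1, an inhibitor of PI3K, was at 15.5 to 18.2 FPKM against 5.37 to 8.50 FPKM (1.3 ± 0.102), and FBXO32, a ubiquitin ligase of muscle atrophy, rose with both agents and more with gefitinib (0.99 ± 0.063). Of 23 integrated stress response genes 14 were higher and 2 lower with gefitinib, among them ATF3, at 8.35 to 9.39 FPKM against 3.77 to 4.12 FPKM (1.0 ± 0.064), and the amino acid transporter SLC7A5 (0.63 ± 0.067), which AZ1366 lowered.

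Of 22 bypass receptor kinases and ligands 15 were tested, of which 8 were higher and 2 lower with gefitinib than with AZ1366 (median 0.43). Against vehicle gefitinib raised 4 and lowered 7 of the 15 (median -0.25), and AZ1366 raised 2 and lowered 10 (median -0.46). IGF1R, the receptor of insulin-like growth factor, was at 8.34 to 9.19 FPKM with gefitinib and 4.85 to 6.33 FPKM with AZ1366 (0.63 ± 0.068), and PDGFB, a platelet-derived growth factor chain, at 19.8 to 21.8 FPKM against 11 to 13.2 FPKM (0.76 ± 0.063), with AZ1366 not called against vehicle for either. Of 21 TGF-beta and BMP response genes 11 were higher and 3 lower (median 0.27; 5 to 6 lower under the 3 other scalings), among them BAMBI, a decoy receptor, at 5.47 to 6.19 FPKM against 2.29 to 2.76 FPKM (1.01 ± 0.068), and ID3, a BMP-induced inhibitor of differentiation factors (0.98 ± 0.072). Among 17 heat shock genes 4 were higher and 4 lower, shares near those of all tested loci, and 4 and 8 after median-ratio scaling or the length and GC correction. The small chaperone CRYAB was at 3.01 to 3.83 FPKM against 1.12 to 1.52 FPKM (0.89 ± 0.071), and HSPD1, the mitochondrial chaperonin, differed by -0.26 ± 0.047. Of 19 NRF2 targets 10 were higher and 1 lower (3 to 4 lower under the 3 other scalings). The lower member was AKR1B10, an aldo-keto reductase that both agents raised and AZ1366 raised further (-0.61 ± 0.088). Of 24 cholesterol synthesis genes 2 were higher and 8 lower, or 2 and 14 after the length and GC correction and 6 and 8 without AZ1366 replicate 1.

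**Figure D4:**
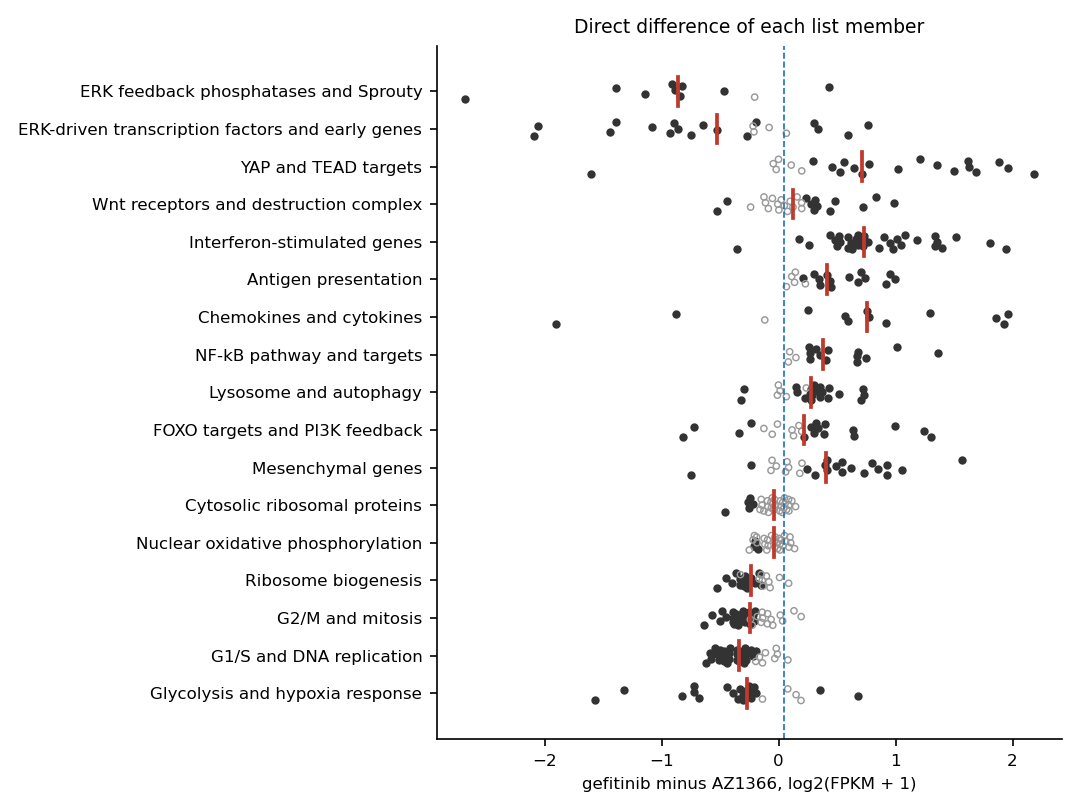
Direct difference, gefitinib minus AZ1366 in log2(FPKM + 1), of each tested member of 17 gene lists, with filled points for members past the limma threshold, open points for the others, red bars at the list medians and a dashed line at the median of all tested loci (0.04). The medians run from -0.86 for ERK feedback genes to 0.76 for chemokines and cytokines, and ribosomal proteins and oxidative phosphorylation genes sit close to the dashed line.

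Of 22 tested epithelial junction genes 8 were higher and 2 lower with gefitinib, or 12 and 1 without AZ1366 replicate 1 and 8 and 4 after the length and GC correction. CLDN1, a tight junction claudin, was at 76.7 to 79.9 FPKM against 49.9 to 59.2 FPKM (0.54 ± 0.052). Of 26 tested mesenchymal and matrix genes 16 were higher and 2 lower with gefitinib (median 0.41), and AZ1366 lowered 18 and raised 1 against vehicle. LOX, which crosslinks collagen, was at 102 to 123 FPKM with gefitinib and 47.0, 34.0, 35.4 and 35.5 FPKM with AZ1366 (1.57 ± 0.087), with vehicle at 48.5 to 53.2 FPKM. TPM1, an actin-binding tropomyosin, was at 578 to 630 FPKM against 290 to 348 FPKM (0.93 ± 0.058). Of 16 tested integrins and laminins 3 were higher and 7 lower with gefitinib. ITGA6, a laminin receptor subunit, was at 47.8 to 55.4 FPKM against 98.4 to 133 FPKM (-1.06 ± 0.082) and ITGA2, a collagen receptor subunit, at 54.1 to 71.4 FPKM against 103 to 141 FPKM (-0.89 ± 0.088), while ITGB6, the partner that activates latent TGF-beta, rose with both agents and more with gefitinib (0.54 ± 0.061). Of 19 tested matrix protease genes 9 were higher and 6 lower. ADAMTS1, a matrix protease, was lowered by both and most by AZ1366, to 1.15 to 2.09 FPKM against 2.52 to 3.41 FPKM with gefitinib and 8.98 to 11 FPKM with vehicle (0.68 ± 0.099).

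Of 11 tested genes of the alveolar lineage 5 were higher and 2 lower with gefitinib (3 to 4 lower under the 3 other scalings). SLC34A2, the phosphate carrier of alveolar type 2 cells, was at 10.6, 10.0, 11.1 and 10.1 FPKM with gefitinib and 3.5, 3.45, 3.2 and 3.19 FPKM with AZ1366, both above vehicle at 1.95 to 2.07 FPKM (1.41 ± 0.053, adjusted p = 1.75e-12). HOPX, a homeodomain protein of alveolar type 1 cells, was at 7.43 to 9.50 FPKM against 2.82 to 3.53 FPKM (1.17 ± 0.081). FOXA2, a lung endoderm factor, was lower, at 0.627 to 0.765 FPKM against 1.42 to 2.10 FPKM (-0.66 ± 0.073). Of 8 tested mucin and airway secretory genes 4 were higher and 2 lower with gefitinib. MUC20, a membrane mucin whose locus may share reads with a near-identical copy, was at 34.3 to 40.4 FPKM against 12.9 to 17.9 FPKM (1.27 ± 0.086). SPDEF, a driver of the secretory fate, was lower with gefitinib, at 10.7 to 12.4 FPKM against 27.3 to 31.3 FPKM (-1.27 ± 0.077), and AGR2, a chaperone of mucin folding, was raised by AZ1366, to 226 to 254 FPKM against 135 to 150 FPKM with gefitinib (-0.75 ± 0.064). Of 19 tested cornified envelope and keratin genes 7 were higher and 7 lower with gefitinib, and 4 to 5 and 7 to 9 under the 3 other scalings. The keratin KRT16 was at 7.18 to 8.39 FPKM with gefitinib and 2.21 to 2.34 FPKM with AZ1366 (1.44 ± 0.070), and KRT80 at 180 to 187 FPKM against 88.3 to 115 FPKM (0.90 ± 0.071).

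Loci that moved in opposite directions numbered 258 (2.22%) for a rise with gefitinib and a fall with AZ1366 and 112 (0.962%) for the converse. These classes moved with the scaling and with single libraries. Under all 3 other scalings 105 of the 258 and 67 of the 112 stayed in their class. The count of the first class was 502 without AZ1366 replicate 1, and 193 to 210 when 1 vehicle library was left out. That of the second class was 69 without vehicle replicate 4. In the first class, beside YAP targets, ZBED2, a zinc finger protein, was at 24.5 to 26.2 FPKM with gefitinib and 7.27 to 8.73 FPKM with AZ1366 (1.57 ± 0.066), and GADD45B, a stress sensor, at 21.0 to 25.7 FPKM against 5.72 to 11.3 FPKM (1.44 ± 0.150). The level with both compounds together fell between the levels of the single agents in 236 of the 258 loci and in 88 of the 112. The rule of these classes sets the single agents apart, which favours a level between them. The share over all tested loci was not counted.

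The converse class held genes of several kinds. SPRR1B, a cornified envelope precursor with 2 AP-1 sites in the promoter printed above, was at 1.77, 1.11, 1.69 and 2.14 FPKM with gefitinib and 10.4, 10.3, 12.5 and 12 FPKM with AZ1366, with vehicle between at 3.45 to 5.79 FPKM. The groups lay far apart, and the direct difference was -2.21 ± 0.125 (adjusted p = 2.03e-10). Its neighbour SPRR1A, a close paralog that could share reads, was raised by AZ1366 and not called with gefitinib (direct difference -1.42 ± 0.094). IL8, the neutrophil chemokine, was at 2.79, 2.49, 3.38 and 2.64 FPKM with gefitinib and 12.2, 10.6, 16.4 and 14.7 FPKM with AZ1366. Gefitinib overlapped the lower end of vehicle (2.81 to 5.66 FPKM), AZ1366 lay above it, and the direct difference was -1.91 ± 0.144 (adjusted p = 7.59e-09). STEAP1, a metalloreductase, was at 4.80 to 5.58 FPKM against 15.2 to 16.8 FPKM (-1.46 ± 0.091), and S100A2, a calcium-binding protein of stratified epithelium, at 38.6 to 49.6 FPKM against 91.3 to 102 FPKM (-1.19 ± 0.074). MALL, a raft protein, differed by -1.12 ± 0.074 and HES1, a repressor downstream of Notch, by -1.18 ± 0.093. In the same direction but not called with AZ1366 against vehicle was SEMA3A, a secreted guidance cue, at 5.37 to 6.09 FPKM against 16.5 to 22.0 FPKM (-1.54 ± 0.070).

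Loci that changed alike were taken as those called against vehicle with both agents, by at least 0.5 in the same direction, with the 95% interval of the direct difference inside -0.5 to 0.5. They numbered 101 up (0.867%) and 458 down (3.93%). Both changes share the vehicle libraries, so the counts are no independent sign of a common response. They moved with the scaling: after median-ratio scaling there were 205 up and 222 down, after quantile normalization 189 and 238, and after the length and GC correction 168 and 240. The median change of all loci was -0.06 with gefitinib and -0.10 with AZ1366 as deposited and 0.00 for both after median-ratio scaling. In all, 73 of the 101 and 154 of the 458 remained in their class under all 3. With both compounds together the level was above both single agents in 100 of the 101 loci (median changes 0.69 with gefitinib, 0.64 with AZ1366 and 1.12 with both) and below both in 458 of 458 (medians -0.69, -0.62 and -1.20). The alike rule holds the single agents close together and so leaves little room for a level between them. The share over all tested loci was not counted here either.

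FXYD3, a regulator of the sodium pump, led the alike rises. It was at 90.3, 95.7, 99.1 and 95.4 FPKM with gefitinib and 71.2, 68.1, 85.3 and 93.4 FPKM with AZ1366, from 29.7 to 40.8 FPKM with vehicle, and the 95% interval of the direct difference was 0.07 to 0.46. The FXYD3 ranges overlapped through AZ1366 replicate 4, and the small excess with gefitinib passed the test (adjusted p = 0.0274). Without AZ1366 replicate 3 or 4 or gefitinib replicate 1 the difference was 0.29 to 0.35 and FXYD3 left the class. ITGB8, an integrin subunit that binds latent TGF-beta, was at 5.86 to 6.58 FPKM and 5.23 to 7.01 FPKM, from 2.19 to 2.71 FPKM (interval -0.11 to 0.25). LIPH, a phospholipase that makes lysophosphatidic acid, was at 20.2 to 24.4 FPKM and 19.7 to 21.7 FPKM, from 9.40 to 10.5 FPKM (interval 0.03 to 0.28). MGST2, a microsomal glutathione transferase, and NIPSNAP3A had intervals of -0.17 to 0.23 and -0.25 to 0.28. Of the gene lists, oxidative phosphorylation gave 5 alike rises of 31 and epithelial junction genes 3 of 22.

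EPHA2, a receptor kinase for ephrin A, was among the alike falls: it was at 25.2, 26, 22.4 and 24.5 FPKM with gefitinib and 37.7, 24.6, 26.9 and 27.1 FPKM with AZ1366, from 58.2 to 75.6 FPKM with vehicle. The ranges overlapped, with AZ1366 replicate 1 the highest, and the 95% interval of the direct difference was -0.46 to 0.02. EPHA2 left the alike class when AZ1366 replicate 2, 3 or 4 or gefitinib replicate 2 was left out (direct difference -0.29 to -0.25). EGFR itself, the target of gefitinib (hg19 chromosome 7, 55086725 to 55275031), was at 41.7, 41.5, 35.5 and 33.8 FPKM with gefitinib and 54.3, 35.0, 35.9 and 39.9 FPKM with AZ1366, from 74.7 to 84.0 FPKM, with a difference of -0.10 and an interval of -0.34 to 0.14. SMURF2, a ubiquitin ligase of TGF-beta receptors, went from 34.8 to 38.5 FPKM to 12.3 to 15.3 FPKM and 13.6 to 22.3 FPKM (interval -0.46 to 0.05). It left the class without AZ1366 replicate 2, 3 or 4, without gefitinib replicate 1 or 2, and in a fit of the compared libraries alone (-0.28 to -0.21). RAB3B, a GTPase of secretory vesicles, went from 10.3 to 10.8 FPKM to 3.55 to 4.26 FPKM and 3.82 to 5.58 FPKM, and with both compounds to 1.21 to 1.4 FPKM (interval -0.32 to 0.01). FLNC, an actin crosslinker, and NOP14, a ribosome assembly factor, had intervals of -0.17 to 0.26 and -0.23 to 0.25. AZ1366 replicate 1 was the highest AZ1366 library in each of these alike falls. Without it 437 of the 458 alike falls stayed in their class, and what set this library apart was not tested. Over lists, 11 of 38 genes of G2 and mitosis and 9 of 25 ribosome biogenesis factors were alike falls.

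**Figure D5:**
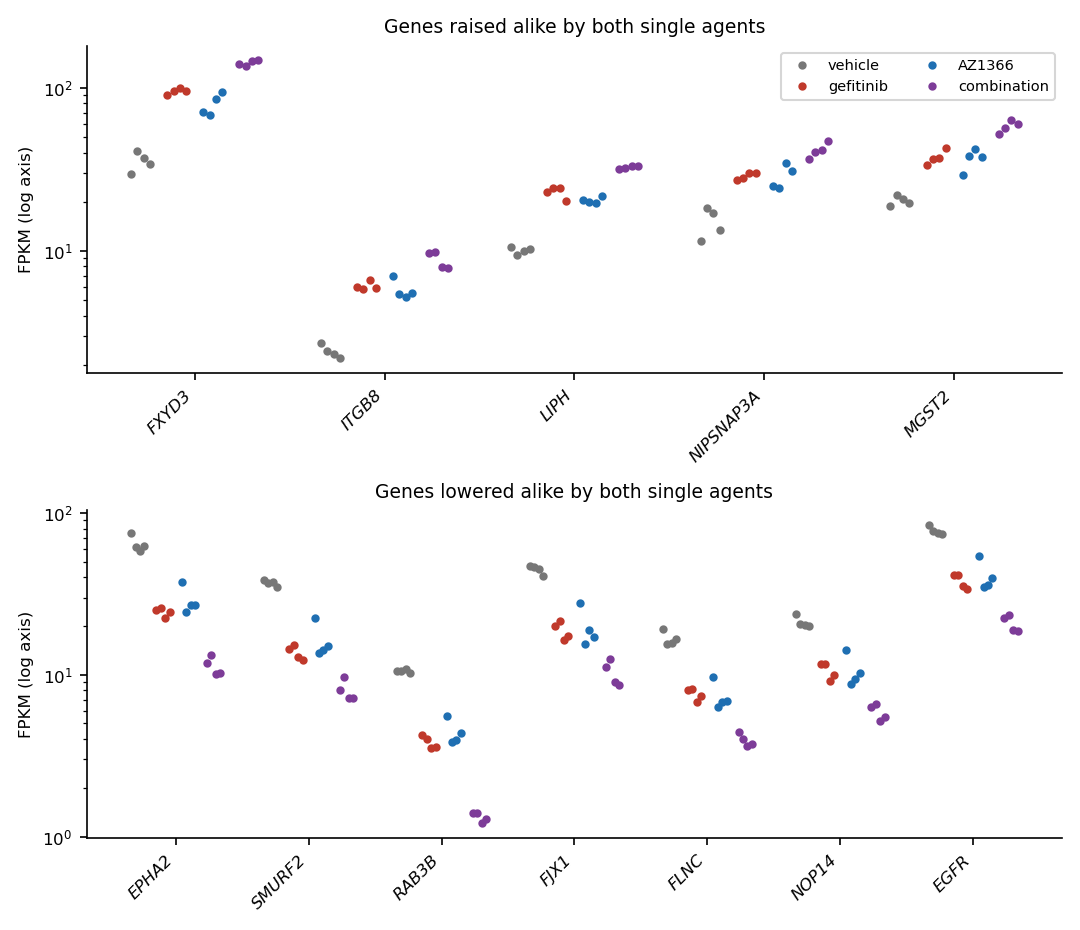
FPKM (log axis) of each vehicle, gefitinib, AZ1366 and combination library, 1 point per library, for 5 genes raised alike and 7 genes lowered alike by the single agents. The gefitinib and AZ1366 points lie at similar heights apart from vehicle, the combination points lie beyond both, for example RAB3B at 1.21 to 1.4 FPKM, and AZ1366 replicate 1 is the leftmost blue point of each gene.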

How the data were processed

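Polyadenylated RNA of HCC4006 cells was extracted with a miRNeasy kit and sequenced from TruSeq v2 libraries, per the labels' protocols. The authors deposited 1 table of FPKM values, made with TopHat 1.4.1, Cufflinks 1.3.0 and Cuffdiff on hg19, per the submitters' processing notes. The annotation and the use of strand are not given in the sources used here, so reads of overlapping or antisense genes cannot be told apart. Of the tested loci, 285 carry several joined symbols and 203 share a symbol. The deposited FPKM values were not whole multiples of a common step, so no read counts were recovered and the depth is unknown.

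Values were taken as log2(FPKM + 1) and loci with a mean of at least 1 FPKM over 16 libraries were kept. A model with 4 groups was fitted with limma 3.58.1 in R 4.3.3 (trended empirical Bayes), p-values were adjusted by Benjamini-Hochberg over 11647 loci, and calls used an adjusted p under 0.05. Errors are the SE of the model with n = 4 libraries per group. Tested on simulated data for gefitinib against AZ1366 over 11647 loci, the code recovered 41.7% of loci changed by 0.25 log2 units, 94.3% of those changed by 0.5 and 98.6% of those changed by 1, with 7 false calls. The simulation changed 60, 70 and 70 loci by these sizes and drew the noise of each library independently. In the data 5361 loci were called, so these rates check the code and do not carry over to the data. AXIN2 and NKD1, below the limit, were tested by exact permutation over 70 assignments.

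Alternatives were other scalings, filters and pseudocounts, a fit of the compared libraries alone, a replicate block and leaving out each library. Genes named were the 12 largest direct differences in each direction, the largest of the opposite and alike classes, up to 4 per gene list and a fixed set. The 12 in each direction were taken from called loci with a single symbol whose gefitinib and AZ1366 libraries did not overlap. The text prints part of these, picked after values were seen. Members and lists were chosen with earlier results of these data known.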

Additional observations from a re-analysis of the deposited data

Results flagged for a closer look

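In 266 groups of 4 libraries, 1 for each of 133 genes and single agent, 16 held a library whose distance to its nearest neighbour was large for the group's range by Dixon's 95% criterion. Chance gives about 1 in 20 such groups. Of the 16, 7 were gefitinib replicate 4 and 4 were AZ1366 replicate 1.

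Gefitinib replicate 4 was above the other gefitinib libraries for ETV5 (3.12 FPKM against 2.48 to 2.56), UBE2C (86.7 against 76.8 to 77.9), S100A2 (49.6 against 38.6 to 39.8) and MALL (96.4 against 81.4 to 82.2). It was below them for ANKRD1 (19.4 against 22.3 to 22.9), TNKS2 (15.5 against 16.6 to 16.8) and LGR5 (3.49 against 3.66 to 3.70). AZ1366 replicate 1 was above the other AZ1366 libraries for DUSP4 (20.6 against 16 to 16.7), LOX (47.0 against 34.0 to 35.5), MALL (216 against 175 to 180) and ITGB8 (7.01 against 5.23 to 5.48).

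Gefitinib replicate 3 was low for SPRY2 (3.69 against 4.14 to 4.23) and NDRG1 (7.43 against 8.03 to 8.13). Gefitinib replicate 2 was low for HBEGF (5.78 against 6.24 to 6.31), and gefitinib replicate 1 was high for MYC (2.91 against 2.75 in the other 3). AZ1366 replicate 3 was low for TNFSF10 (23.5 against 27.5 to 27.9).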

How the results depend on the processing

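Of 2903 combinations of 133 genes and 22 alternatives, 2863 kept the direction and the side of the threshold, and 125 genes did so throughout. The 133 did not cover every gene named above: BAMBI, ID3, IGF1R, PDGFB, CRYAB, HSPD1, AKR1B10, CLDN1, FOXA2 and ZBED2 were among those left out. In 37 a call or class membership was lost: AXIN1 lost its direct call in 8 alternatives and RNF146 in 12, while SMURF2 left the alike class in 6, EPHA2 and CCDC88A in 4 each and FXYD3 in 3. TNKS2 gained a call without AZ1366 replicate 1 (0.24). TNKS, never called, changed sign after median-ratio scaling (-0.01) and quantile normalization (-0.06). Where a call changed, the cause was not tested.

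After the length and GC correction the counts became 3328 lower with gefitinib, 225 down with gefitinib and up with AZ1366, 168 alike up and 240 alike down. Median-ratio scaling gave 175, 205 and 222 for the last 3 counts, and quantile normalization gave 3181, 208, 189 and 238 for all 4. A minimum mean of 5 FPKM tested fewer loci and left 2070 higher. A fit of the compared libraries alone, without the combination, gave 2712 loci higher and 1711 lower with gefitinib. At the larger size it gave 157 and 52. A pseudocount of 0.1, which shrinks low values less, gave 261 loci at least 1 log2 unit higher and 85 lower. Asking a change of 0.5 of each agent left 13 and 1 opposite loci. A minimum change of 0.25 gave 640 alike up and 1979 alike down, and an interval within 0.25 gave 27 and 98.

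Leaving out 1 library at a time gave 2707 to 4497 loci higher and 1783 to 2227 lower, 142 to 187 and 47 to 57 at the larger size, 176 to 502 and 69 to 130 opposite, and 77 to 144 alike up and 325 to 629 alike down. The 502 were without AZ1366 replicate 1 and the 69 without vehicle replicate 4. The main fit did not treat replicate numbers as pairs. Deviations of same-numbered gefitinib and AZ1366 libraries correlated at 0.539, -0.42, 0.226 and 0.049, and 2 of 8 libraries correlated best with their own number. Over all pairs of the 4 groups the correlations were 0.207 to 0.539 for number 1 and -0.447 to 0.29 for number 2. They were 0.132 to 0.292 for number 3 and 0.009 to 0.274 for number 4. What same-numbered libraries had in common was not tested. With a replicate block there were 3548 higher and 2258 lower, 157 and 53 at the larger size, 328 and 125 opposite, and 106 alike up and 476 alike down.

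Depth is unknown, so low values such as those of AXIN2 have no counting error attached.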
